A study of Homo sapiens with 6 samples.

Results

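The genes described here build the cadherin-based junctions that hold epithelial cells together. They are the classical cadherins CDH1 and CDH3, the catenins CTNNA1, CTNNB1, CTNND1 and JUP, and the desmosome genes DSP, DSG2, DSC2 and PKP2. They were read on Affymetrix arrays in LCCTam and SUM44, a pair of human breast cancer cell lines. SUM44 comes from an invasive lobular carcinoma and is described in the labels as positive for estrogen and progesterone receptors. LCCTam is its tamoxifen-resistant variant, and its 3 samples were taken at passages 8, 9 and 10 from cells grown in medium with 500 nM 4-hydroxytamoxifen. The 3 SUM44 samples were taken at passages 74, 75 and 76 from the same medium without that drug. Resistance, the presence of the drug and passage number therefore cannot be told apart, and LCCTam stands for 1 resistant line.

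Members were the probe sets whose single gene symbol in the platform annotation was 1 of the 10 genes. This gave 15 of 19065 named probe sets, for 9 of the 10 genes among 11963 genes in all. CTNND1, which encodes p120-catenin, had 0 such probe sets, because the 3 that carry its symbol also carry that of a read-through transcript. No value is therefore given for CTNND1.

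Classical cadherins bind the same cadherin on the next cell through their extracellular domains. Inside the cell the tail of E-cadherin (CDH1) binds p120-catenin and either beta-catenin (CTNNB1) or plakoglobin (JUP), and these last proteins bind alpha-catenin (CTNNA1), which links the complex to actin. Desmosomes are built from another group of cadherins, the desmogleins and desmocollins (DSG2, DSC2), whose tails bind plakoglobin and plakophilins (PKP2), and desmoplakin (DSP) ties these to keratin filaments. Loss of E-cadherin protein is the hallmark of lobular breast carcinoma, and it commonly comes with loss of the membrane pool of its catenins. Arrays measure RNA and not protein, and in total RNA fewer cells with a transcript and less of it per cell cannot be told apart.

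The 8 epithelial and luminal marker genes lay between 7.19 and 13.50 log2 units on the LCCTam arrays and between 7.39 and 13.45 on the SUM44 arrays, each read by its brightest probe set. Their sum per array was 88.3 to 91.0 in LCCTam and 92.2 to 92.9 in SUM44. Of these 8 genes 1 passed the test used below, ESR1, the estrogen receptor alpha gene, with a difference of -1.65. The 7 fibroblast markers lay between 3.46 and 7.01 in LCCTam and between 3.59 and 6.89 in SUM44, and the 7 leukocyte and endothelial markers between 4.16 and 6.53 in LCCTam and between 4.11 and 6.32 in SUM44. Of these 14 genes 0 passed in limma, and 0 had an unadjusted p under 0.05. The largest difference among the fibroblast markers was -0.18, for DCN. Among the leukocyte and endothelial markers it was 0.27, for the B cell marker CD79A. Of the 6 arrays, LCCTam passage 10 stood apart in a control for RNA quality and in its distribution of values. There the actin probe set for the 3' end read above that for the 5' end by 1.92 log2 units, where this gap was 1.08 and 1.11 on the other LCCTam arrays and 0.90 to 1.15 on the SUM44 arrays. Its 75th percentile over all probe sets was 7.50, where the other 5 arrays had 7.68 to 7.78. The part of this in the results below was not tested beyond leaving that array out and fitting with array weights. Those weights were 5.40, 0.71 and 0.20 for LCCTam passages 8, 9 and 10, and 0.66, 2.40 and 0.83 for SUM44 passages 74, 75 and 76, so the weighted values rest mostly on LCCTam passage 8 in that line.

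Among the members, CDH3, DSP and DSG2 fell in LCCTam and no other gene passed. Each difference is in log2 units, LCCTam minus SUM44, from a limma fit of all 19065 named probe sets, and a probe set passed at a Benjamini-Hochberg adjusted p under 0.05. Of the 15 member probe sets 3 were lower, 0 were higher and 12 did not pass. That is 20% lower, where 5.65% of all named probe sets were lower and 7.37% passed in either direction. Counted by the brightest probe set of each gene, 3 of 9 genes passed, where 7.76% of all genes did. For 7 member probe sets, or 46.7%, all values of 1 line lay on one side of the other's, where 29.6% of all named probe sets did so. Of these 7 probe sets 6 were lower and 1 was higher in LCCTam, and 3 of the 6 read the same gene, CTNNA1. The direction was not counted over all named probe sets. By brightest probe set, 5 of 9 member genes were without overlap, where 3570 of 11963 genes were. The median difference was -0.13 over the 15 member probe sets and 0.013 over all named probe sets. With 15 probe sets, 1 call more or less moves these shares widely, and the genes were chosen with earlier results of these data known.

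**Figure D1:**
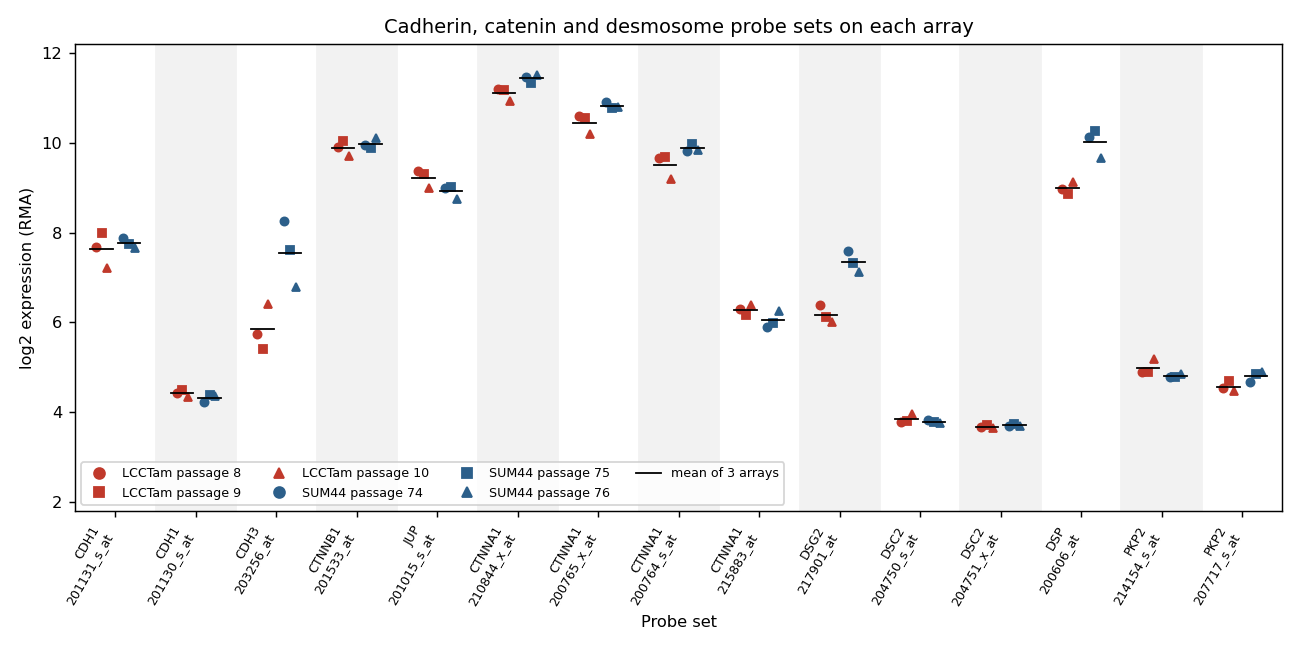
Log2 expression (RMA, vertical axis) of the 15 member probe sets (horizontal axis) on each array, with LCCTam in red to the left of SUM44 in blue. Marker shapes give the passage and lines the mean of 3 arrays. The LCCTam points lie below all SUM44 points for CDH3, DSG2, DSP and 3 of the 4 CTNNA1 probe sets, and the groups overlap for both CDH1 probe sets.

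CDH1, the E-cadherin gene on chromosome 16 (68737292 to 68835537, GRCh38.p14), gave a signal in both lines by 1 of its probe sets. Probe set 201131_s_at read 7.69, 7.99 and 7.22 on the LCCTam arrays of passages 8, 9 and 10, against 7.89, 7.74 and 7.67 on the SUM44 arrays of passages 74, 75 and 76. The LCCTam values spread on both sides of all SUM44 values. The means were 7.63 ± 0.39 in LCCTam and 7.76 ± 0.11 in SUM44 (SD, n = 3 each), and they ranked at percentile 74.9 in LCCTam and 75.3 in SUM44 among all probe sets of an array. A percentile describes brightness only, since probe sets differ in how well they bind. The difference was -0.13 (limma adjusted p = 0.731), with a 95% confidence interval from -0.58 to 0.32. A fall or a rise within that interval is therefore not excluded with 6 arrays.

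The other CDH1 probe set, 201130_s_at, was dim in both lines. It read 4.44, 4.49 and 4.33 in LCCTam, against 4.23, 4.39 and 4.37 in SUM44, at percentiles 17.5 and 15.7 of those arrays. Its difference was 0.09 (adjusted p = 0.595). The deposited values hold no detection calls, so whether this probe set saw any transcript is unknown, and the probe sets of CDH1 disagreed in brightness but not in passing. Without LCCTam passage 10, where the brighter probe set had its lowest value, the difference of that probe set was 0.08 and its sign changed.

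CDH3 encodes P-cadherin, a classical cadherin of basal and myoepithelial breast cells, and lies beside CDH1 on chromosome 16 (68645310 to 68733771, GRCh38.p14). Its 1 probe set, 203256_at, read 5.75, 5.42 and 6.41 in LCCTam, against 8.25, 7.61 and 6.80 in SUM44. Every LCCTam value lay below every SUM44 value, and LCCTam passage 10 and SUM44 passage 76 were the nearest to each other. Within SUM44 the value fell at each later passage, and whether passage has a part in the difference was not tested. The means were 5.86 ± 0.51 in LCCTam and 7.55 ± 0.73 in SUM44 (SD, n = 3 each). The difference was -1.69 (SE 0.39, adjusted p = 0.0488), which is 3.23-fold lower in LCCTam, and its interval ran from -2.62 to -0.76.

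The CDH3 call was close to the threshold. It passed in 6 of 13 other fits, and its difference ran from -2.07 to -1.34 over them. With quantile normalization its adjusted p was 0.0502. It did not pass without LCCTam passage 8 (0.161), LCCTam passage 9 (0.130), SUM44 passage 74 (0.0875) or SUM44 passage 75 (0.173). The spread of CDH3 within SUM44 was the widest of any member in either line.

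P-cadherin and E-cadherin were also set against each other within each array. The CDH3 minus CDH1 value was -1.93, -2.58 and -0.81 in LCCTam, against 0.36, -0.13 and -0.87 in SUM44. The lines overlapped, and the mean difference of -1.56 had a two-sided exact permutation p of 0.2. The smallest p that 3 against 3 arrays allow is 0.1, so this comparison could not reach the threshold. Whether CDH3 changed more than CDH1 therefore cannot be decided by it, and the pair was chosen after its values were seen.

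Of the 8 other genes within 500000 bases of CDH3 that were measured, CDH1 included, 1 rose and 0 fell. That gene was PRMT7, an arginine methyltransferase, at 0.52 (adjusted p = 0.0334), and the median of the 8 was 0.05.

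**Figure D2:**
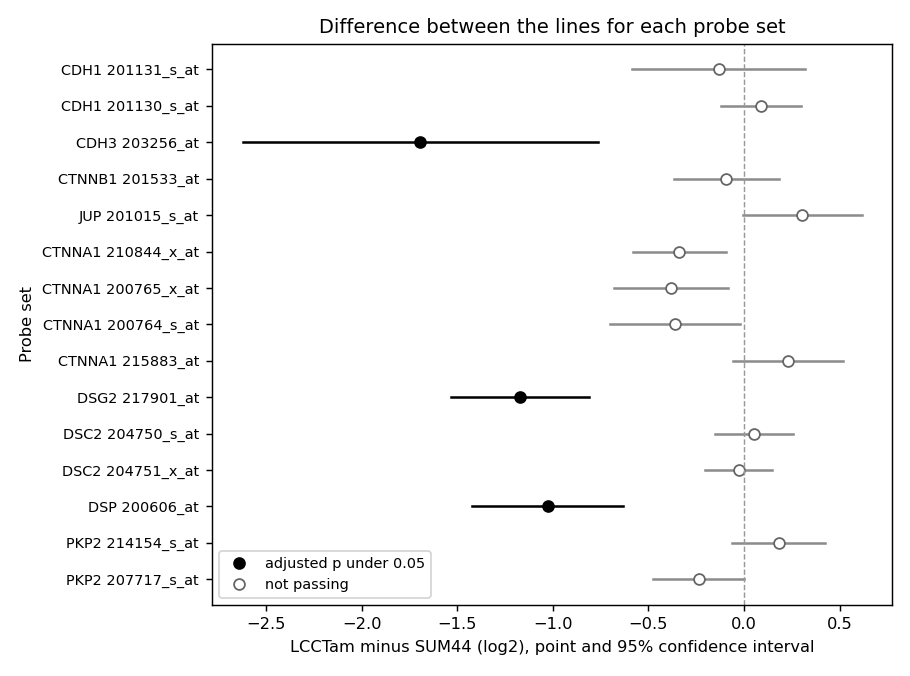
LCCTam minus SUM44 on the log2 scale (horizontal axis) for each member probe set (vertical axis), with 95% confidence intervals from the limma fit. Filled points passed an adjusted p of 0.05. CDH3, DSG2 and DSP stand between -1.69 and -1.03, and the 12 others lie between -0.38 and 0.30.

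The catenins, which bind the cadherin tails, gave bright signals in both lines by their brightest probe sets, and none passed. CTNNB1, the beta-catenin gene on chromosome 3 (41199505 to 41240443), read 9.92, 10.05 and 9.70 in LCCTam, against 9.94, 9.89 and 10.10 in SUM44. The groups overlapped, with means of 9.89 ± 0.18 in LCCTam and 9.98 ± 0.11 in SUM44 (SD, n = 3 each). The difference was -0.09 (adjusted p = 0.686, interval -0.37 to 0.18), and it was 0.0033 without LCCTam passage 10. The probe set ranked at percentile 93.5 in both lines.

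JUP, which encodes plakoglobin, the catenin shared by adherens junctions and desmosomes, lies on chromosome 17 (41754609 to 41786711). It read 9.38, 9.30 and 8.99 in LCCTam, against 8.98, 9.03 and 8.75 in SUM44. SUM44 passage 75 lay above LCCTam passage 10, and no other SUM44 value exceeded an LCCTam value. The difference was 0.30 (adjusted p = 0.229), with an interval from -0.0058 to 0.62. It was 0.42 without LCCTam passage 10 (adjusted p = 0.0545) and 0.40 with array weights (adjusted p = 0.0085), a setting in which 32.6% of all named probe sets passed.

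CTNNA1, the alpha-catenin gene on chromosome 5 (138753425 to 138935034), was read by 4 probe sets that disagreed in direction. The brightest, 210844_x_at, read 11.20, 11.17 and 10.94 in LCCTam, against 11.47, 11.34 and 11.51 in SUM44. All 3 LCCTam values lay below all SUM44 values. Its difference was -0.34 (adjusted p = 0.102, interval -0.58 to -0.096), which is 1.26-fold lower. Probe sets 200765_x_at and 200764_s_at had differences of -0.38 and -0.36 without overlap between the lines, with adjusted p of 0.126 and 0.195.

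The fourth CTNNA1 probe set, 215883_at, was dimmer and went the other way. It read 6.29, 6.16 and 6.38 in LCCTam, against 5.89, 5.98 and 6.27 in SUM44, a difference of 0.23 (adjusted p = 0.322). LCCTam passage 10 had the lowest value of the LCCTam arrays in the 3 brighter probe sets. Without it their differences were -0.26, -0.25 and -0.20, in order of brightness. With array weights all 4 CTNNA1 probe sets passed, the 3 brighter ones at -0.21, -0.22 and -0.27 (adjusted p = 0.0466, 0.0479 and 0.0335) and 215883_at at 0.25 (adjusted p = 0.0492). In that setting 32.6% of all named probe sets passed. Probe sets whose names end in _x_at can bind related transcripts, and the probe sets of CTNNA1 share a gene, so their like values are not separate evidence.

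In the desmosome, the cadherin DSG2 and the linker DSP fell, and DSC2 and PKP2 did not pass. DSG2 encodes desmoglein 2, the desmoglein of simple epithelia, on chromosome 18 (31498177 to 31549008). Its 1 probe set, 217901_at, read 6.39, 6.12 and 6.01 in LCCTam, against 7.60, 7.33 and 7.12 in SUM44. The groups did not overlap, and within each line the value fell at each later passage. The means were 6.18 ± 0.19 in LCCTam and 7.35 ± 0.24 in SUM44 (SD, n = 3 each). The difference was -1.17 (SE 0.15, adjusted p = 0.0073), or 2.25-fold lower in LCCTam. DSG2 passed in all 13 other fits, at -1.29 to -0.98 and adjusted p up to 0.0489.

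DSP encodes desmoplakin and lies on chromosome 6 (7541671 to 7586714). Probe set 200606_at read 8.97, 8.86 and 9.13 in LCCTam, against 10.12, 10.27 and 9.66 in SUM44. All 3 LCCTam values were below all SUM44 values, and LCCTam passage 10, the array with the wider actin gap, had the highest of its line. The means were 8.99 ± 0.14 in LCCTam and 10.01 ± 0.32 in SUM44 (SD, n = 3 each). The difference was -1.03 (SE 0.17, adjusted p = 0.0156), or 2.04-fold lower. DSP passed in 10 of 13 other fits. It did not pass without LCCTam passage 8 (adjusted p = 0.0707), LCCTam passage 9 (0.0582) or SUM44 passage 75 (0.0709), with differences of -1.02, -0.96 and -0.90.

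**Figure D3:**
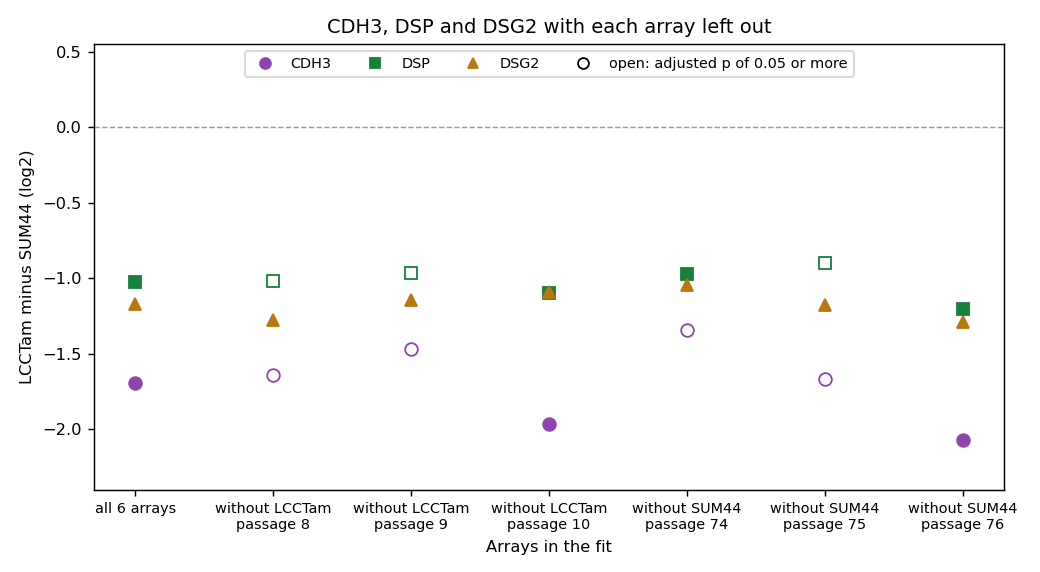
LCCTam minus SUM44 on the log2 scale (vertical axis) for CDH3, DSP and DSG2 with all 6 arrays and with each array left out in turn (horizontal axis). Filled symbols passed an adjusted p of 0.05. DSG2 stays filled throughout, DSP is open in 3 of the 6 fits and CDH3 in 4, and all values lie between -2.07 and -0.90.

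DSC2 and PKP2 gave dim signals in both lines. DSC2, which encodes desmocollin 2, the usual partner of desmoglein 2, read 3.77, 3.80 and 3.97 in LCCTam and 3.83, 3.79 and 3.76 in SUM44 by probe set 204750_s_at. Its other probe set, 204751_x_at, lay between 3.66 and 3.72 in LCCTam and between 3.69 and 3.74 in SUM44. Both ranked between percentiles 2.45 and 5.38 of all probe sets, so whether they saw any transcript is unknown. Their fitted differences were 0.05 and -0.03, with adjusted p of 0.758 and 0.860.

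PKP2, which encodes plakophilin 2, gave opposite signs by its probe sets. By 214154_s_at it read 4.89, 4.89 and 5.18 in LCCTam, against 4.78, 4.78 and 4.85 in SUM44, which is the 1 member probe set higher in LCCTam without overlap. Its difference was 0.18 (adjusted p = 0.354). By 207717_s_at it read 4.54, 4.69 and 4.48 in LCCTam, against 4.67, 4.85 and 4.90 in SUM44, a difference of -0.24 (adjusted p = 0.221). With array weights, a setting in which 32.6% of all named probe sets passed, that probe set passed at -0.28 (adjusted p = 0.0177). Both probe sets were dim, between percentiles 20.9 and 30.3, and no detection calls show whether they were above background.

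Desmoplakin and desmoglein 2 were compared with plakoglobin, their shared partner, within each array. The DSP minus JUP value was -0.41, -0.44 and 0.14 in LCCTam, against 1.13, 1.24 and 0.91 in SUM44. The DSG2 minus JUP value was -2.99, -3.18 and -2.98 in LCCTam, against -1.39, -1.69 and -1.64 in SUM44. Neither overlapped between the lines. The mean differences were -1.33 for DSP and -1.48 for DSG2, each with a two-sided exact permutation p of 0.1, the smallest 3 against 3 arrays allow, and 0.15 adjusted over the 3 pairs compared. The pairs were chosen after their values were seen.

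For DSP and DSG2, which were both lower in LCCTam, the 250 bases before the annotated start of each are shown, from RefSeq on GRCh38.p14. The DSP window is chr6:7541421-7541670 and the DSG2 window chr18:31497927-31498176, both on the plus strand. The window of DSC2, the neighbour of DSG2 that was dim in both lines, is added for comparison at chr18:31102422-31102671 on the minus strand. Capitals mark the E-box CAGGTG and its reverse complement CACCTG, a motif bound by factors of the SNAI and ZEB families.
DSP: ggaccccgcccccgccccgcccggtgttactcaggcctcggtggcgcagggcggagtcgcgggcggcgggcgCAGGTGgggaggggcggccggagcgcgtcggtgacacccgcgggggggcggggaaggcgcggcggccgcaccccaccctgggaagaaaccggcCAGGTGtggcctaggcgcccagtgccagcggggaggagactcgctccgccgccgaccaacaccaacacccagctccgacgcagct
DSG2: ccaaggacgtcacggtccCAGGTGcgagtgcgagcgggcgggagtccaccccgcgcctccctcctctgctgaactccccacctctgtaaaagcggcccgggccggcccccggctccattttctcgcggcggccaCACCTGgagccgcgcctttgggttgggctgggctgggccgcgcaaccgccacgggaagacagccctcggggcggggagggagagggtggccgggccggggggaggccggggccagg
DSC2: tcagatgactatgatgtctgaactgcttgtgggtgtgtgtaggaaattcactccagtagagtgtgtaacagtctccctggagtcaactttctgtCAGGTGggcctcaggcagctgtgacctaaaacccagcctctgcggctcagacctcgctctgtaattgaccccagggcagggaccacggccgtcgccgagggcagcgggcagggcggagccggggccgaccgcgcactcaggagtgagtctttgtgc

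The DSP window held 2 such E-boxes, starting 178 and 85 bases before the annotated start, and the DSG2 window held 2, starting 232 and 116 bases before it. The DSC2 window shown held 1, at 156 bases. Of 35116 promoter windows of this length, 17.5% held at least 1 and 2.53% held 2 or more. Promoter sequences were matched for 6 of the 10 genes, in 11 windows, since some genes have several starts. No sequence was matched for CDH1, CDH3, CTNND1 and PKP2, so the windows leave out CDH3, which also fell. The second window of JUP, which had a difference of 0.30 and did not pass, also held 2 E-boxes, and its first held 0. The second window of DSC2 held 0, and the 4 windows of CTNNA1 and the window of CTNNB1 held 0. A motif match is a description of the letters and no binding was measured here. The windows of DSP and DSG2 were rich in G and C, at 78% and 75.2%, and contained 0 copies of the TATA motif TATAAA on either strand.

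The desmosomal cadherin genes lie side by side on chromosome 18, and of those measured DSG2 alone passed. DSC3, DSC1, DSG1 and DSG3 had differences of -0.04, 0.05, 0.03 and -0.16, and their brightest probe sets had means of 3.89 to 4.36 in LCCTam and 3.90 to 4.51 in SUM44. Like those of DSC2 these probe sets were dim, between percentiles 6.36 and 20.0, so whether they could show a fall is unknown. Of the 8 genes measured within 500000 bases of DSG2, 1 fell and 0 rose. That gene was TRAPPC8, a subunit of a vesicle tethering complex, at -0.66 (adjusted p = 0.0277). Of the 3 measured near DSP, 0 passed.

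The genes whose profiles over the 6 arrays came closest to those of the 3 fallen members were named by Euclidean distance between profiles centred on their means. For DSG2 these were RAI2, ENC1 and SERINC5, at distances of 0.20, 0.21 and 0.28 log2 units and differences of -1.05, -1.18 and -1.06. For DSP they were SHTN1, NAMPT and NR1D2, at distances of 0.17, 0.28 and 0.28. For CDH3 they were QPRT, EEF1A2 and DDC, at the larger distances of 0.56, 0.61 and 0.77. DSP and DSG2 were 0.54 apart from each other, so neither was the closest profile of the other. The likeness rests on 6 arrays in 2 lines, and any gene with a similar difference scores as close.

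Beyond the members, the listed genes of the junction and of its regulation and signalling passed about as often as genes in general. They include transcription factors, beta-catenin signalling genes, proteases and keratins, and are called other junction genes here. Of 124 other genes listed, 107 were measured, 2 rose, 5 fell and 100 did not pass. That is 6.54% passing, where 7.76% of all genes passed, and the median difference was -0.016. Without LCCTam passage 10 the count was 12, and without LCCTam passage 8 or SUM44 passage 75 it was 4 each time.

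Among the other catenins and their partners 1 of 7 fell and 0 rose. CTNND2, which encodes delta-catenin, a relative of p120-catenin best known from neurons, read 5.24, 4.91 and 4.58 in LCCTam, against 6.65, 6.67 and 6.41 in SUM44. All LCCTam values were below all SUM44 values. The difference was -1.66 (adjusted p = 0.0034), its other probe set differed by -0.75 (adjusted p = 0.0140), and it passed in all 11 other fits that held it. Of 16 other cadherins 0 passed and 0 had an unadjusted p under 0.05. Their means ran from 3.72 to 6.18 in LCCTam and from 3.71 to 6.16 in SUM44. No detection calls show which of these were above background. The largest difference among the 16 was CDH7 at 0.32 (adjusted p = 0.255). CDH2, the N-cadherin gene, read 5.94, 5.81 and 5.89 in LCCTam, against 5.83, 5.70 and 5.76 in SUM44, a difference of 0.11 (adjusted p = 0.462), and it was chosen for mention after its values were seen.

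Of 10 other desmosome genes 0 passed in limma and 1 had an unadjusted p under 0.05. That gene was PPL, which encodes periplakin, a plakin related to desmoplakin, at 8.17, 7.87 and 7.35 in LCCTam, against 9.01, 8.52 and 8.09 in SUM44. The groups overlapped, with a difference of -0.74 (adjusted p = 0.175). The 4 simple keratins, whose filaments desmosomes anchor, did not pass, with differences from -0.43 for KRT7 to -0.09. The KRT7 difference was 0.017 with array weights, and its other probe set differed by 0.14.

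**Figure D4:**
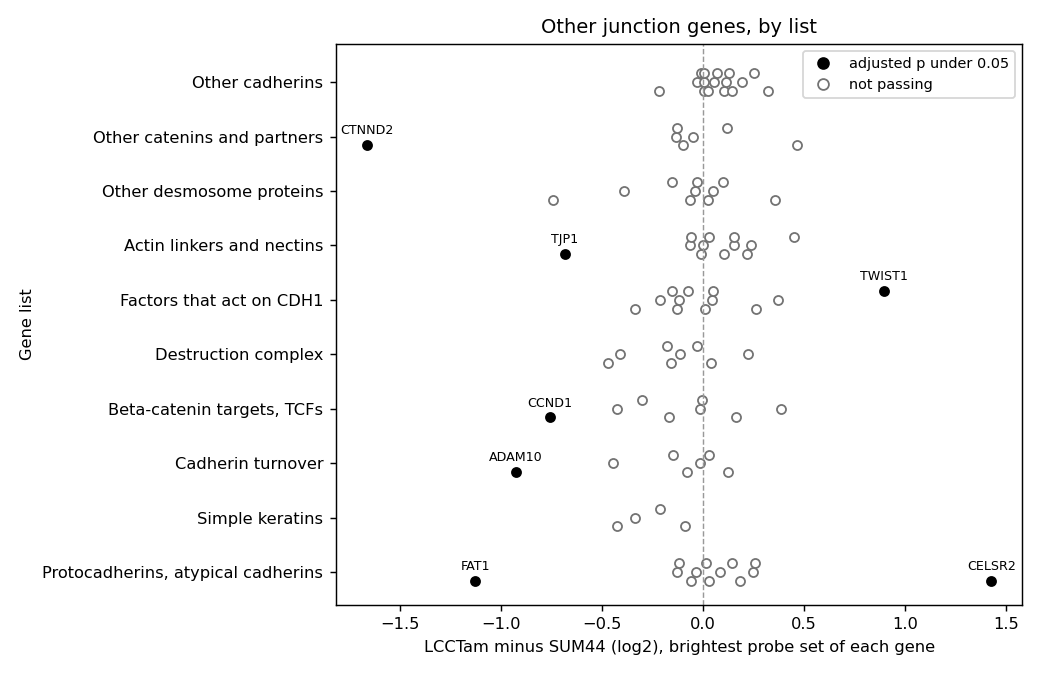
LCCTam minus SUM44 on the log2 scale (horizontal axis) for each measured gene of 10 lists of other junction genes (vertical axis), by its brightest probe set. Filled points passed an adjusted p of 0.05 and are named. CTNND2, FAT1, ADAM10, CCND1 and TJP1 are lower in LCCTam, CELSR2 and TWIST1 are higher, and the open points did not pass.

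Of 12 actin linkers and nectins 1 fell and 0 rose. TJP1, the scaffold protein ZO-1, differed by -0.69 (adjusted p = 0.0120) and its other probe set by -0.64 (adjusted p = 0.046). TJP1 did not pass without LCCTam passage 8 (0.0520) or SUM44 passage 75 (0.0702). Of 7 genes of cadherin turnover 1 fell and 0 rose. ADAM10, the membrane protease known to cleave E-cadherin, differed by -0.93 (adjusted p = 0.0070), and its 2 other probe sets by -0.83 and -1.25. It passed in all 13 other fits.

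Of 12 transcription factors that act on the CDH1 promoter 1 rose and 0 fell. TWIST1, a repressor of E-cadherin, read 8.06, 8.53 and 7.97 in LCCTam, against 7.50, 7.24 and 7.13 in SUM44, a difference of 0.89 (adjusted p = 0.0263). It did not pass without LCCTam passage 8, LCCTam passage 9, SUM44 passage 75 or SUM44 passage 76, with adjusted p from 0.0505 to 0.123. The other 11 did not pass, and the median difference over the 12 was -0.03. Of the 12, 2 had an unadjusted limma p under 0.05, TWIST1 and SNAI1. SNAI1 differed by 0.37 (adjusted p = 0.111), with all LCCTam values above all SUM44 values. SNAI2, ZEB1 and ZEB2 differed by 0.05, 0.05 and 0.01, with overlap between the lines. They were dim, with means of 3.97, 4.57 and 3.44 in LCCTam and 3.92, 4.52 and 3.43 in SUM44. Whether their probe sets saw any transcript is unknown. CDH1 itself did not pass in any setting, with adjusted p from 0.308 to 0.931 for its brighter probe set.

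Genes of beta-catenin signalling were mostly without a call. Of 8 genes of the destruction complex, which marks free beta-catenin for degradation, 0 passed in limma and 1 had an unadjusted p under 0.05. The gene with that p was CSNK1A1, at -0.41 (adjusted p = 0.0913), with all LCCTam values below all SUM44 values. The largest difference was that of the kinase gene GSK3B at -0.47 (adjusted p = 0.356), with overlap between the lines. Of 8 beta-catenin targets and TCF factors 1 fell and 0 rose. It was CCND1, the cyclin D1 gene, at -0.76 (adjusted p = 0.0138), and its other probe set differed by -0.83. CCND1 did not pass without LCCTam passage 8 (0.0679) or SUM44 passage 75 (0.0737).

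Of 13 protocadherins and atypical cadherins 1 rose and 1 fell. CELSR2, a cadherin of planar cell polarity, read 9.06, 9.33 and 8.76 in LCCTam, against 7.66, 7.36 and 7.86 in SUM44, a difference of 1.43 (adjusted p = 0.0069), and its other probe set differed by 1.35. FAT1, a giant atypical cadherin, read 7.26, 7.15 and 7.32 in LCCTam, against 8.57, 8.40 and 8.14 in SUM44, a difference of -1.13 (adjusted p = 0.0041). Both CELSR2 and FAT1 were without overlap and passed in all 13 other fits.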

How the data were processed

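RMA, named in the submitters' processing notes, gave the log2 values that the authors deposited for each probe set. It corrects background, normalizes between arrays and summarises probes. The deposited arrays still differed in their 75th percentile, as given above. The version and chip definition used were not given in the sources used here. No detection calls or scan dates were used, so array batch and line cannot be told apart. Precision is limited by 6 arrays.

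Groups came from the titles, with 3 arrays per line. No label calls the passages separate cultures, so a p-value reflects only how far these samples spread. Of 22283 probe sets 68 were controls. The 19065 others with 1 symbol in the platform annotation were tested, and symbols of 19053 were updated through Entrez identifiers with the RefSeq table of GRCh38.p14. LCCTam minus SUM44 came from lmFit and eBayes (limma 3.58.1, R 4.3.3), with Benjamini-Hochberg adjustment over all 19065. Each gene was also read by its brightest probe set. The fit was tested on simulated data.

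Members and lists were chosen with earlier results of these data known. Named were all member probe sets, up to 3 passing genes with the largest absolute difference per list (or the 1 with the largest where 0 passed), and the 3 closest profiles of CDH3, DSP and DSG2. Other genes were named after their values were seen. Alternatives changed normalization, array weights, the variance prior, the probe sets tested, the threshold and the arrays used. The comparisons of gene pairs within arrays were added after the data were seen. The counts over the other junction genes include 1 further list that is not reported here.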

Additional observations from a re-analysis of the deposited data

How the results depend on the processing

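Of 177 comparisons of a member probe set with an alternative, 157 kept their direction and their side of the threshold, 10 lost a call, 6 gained one and 4 changed sign. The sign changes were all in uncalled probe sets. With each array left out in turn, the brighter CDH1 probe set lay between -0.31 and 0.075, CTNNB1 between -0.17 and 0.0033, and the brighter DSC2 probe set between -0.0065 and 0.090, and each changed sign without LCCTam passage 10. That DSC2 probe set was at -0.0085 with array weights. Among the other genes named, KRT7 was at 0.017 with array weights. The number of member probe sets that passed was 9 with array weights and 1 to 3 when each array was left out in turn, against 3 with all arrays. Counted by gene it was 5 with array weights and likewise 1 to 3. The other junction genes that passed numbered 26 with array weights, 4 to 12 with each array left out and 3 with a difference of at least 1, against 7. Array weights passed 6207 of 19065 probe sets (32.6%), 3230 of them lower, quantile normalization passed 1580, 916 of them lower, and the reported fit 1405, 1078 of them lower. The cause was not tested, and leaving out an array also leaves fewer samples. The median difference over all probe sets lay between -0.023 and 0.031 in all settings. No paired analysis was possible because the lines share no passage.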
